A study of Oryzias latipes with 2 samples.

Results

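Basal keratinocytes of adult medaka skin, the epidermal cells that rest on the basement membrane, numbered 276 of the 911 epidermal cells of run 1 and 96 of the 160 of run 2, or 372 of 1071 epidermal cells and of 5316 cell barcodes in all. The cells were chosen by counts of unique molecular identifiers (UMIs), each standing for 1 captured transcript molecule. An epidermal cell had at least 500 UMIs, 300 detected genes, 2 UMIs of epcam and 1 UMI of krt5, and at most 1 UMI each of CRABP1, scarb1 and KIRREL3. Within these, a basal keratinocyte had a sum B of at least 3 UMIs over itgb4, ITGA2, TINAGL1 and TNS4, and B above the sum S over krt97 and evpla. The comparison class was every other epidermal cell of the same run, 635 cells in run 1 and 64 in run 2.

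Skin and scales came from wild-type adult fish of the inbred HdrR strain of medaka (Oryzias latipes), males and females together, with no treatment contrast. The tissue was dissociated for 1 h at 37 °C in TrypLE, a trypsin-like enzyme mix, then stained with the nuclear dye Draq5. Cells were sorted, with pigment cells enriched by GFP and mCherry signals according to the design text, so the epidermal cells passed a sort aimed at other cells, through gates that no source here describes. The 2 runs were separate 10x Genomics 3′ libraries aimed at 10000 and 1000 cells, with the same labels, so they formed 1 group of 2 libraries. Nothing states that they came from separate fish. The p-values measure only how far the difference between classes varied between these 2 libraries, with the spread shared across genes. That variation may be technical.

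The basal layer is the proliferative, anchored layer of a stratified epidermis. Its cells bind laminin in the basement membrane through integrins, of which the α6β4 pair is the core of the hemidesmosome, and through plectin tie that contact to keratin filaments. Cells that leave the layer lose these contacts, build tight junctions and an apical surface, and in fish become the intermediate and superficial layers.

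Run 1 held 4702 barcodes and 25236411 UMIs, and run 2 held 614 barcodes and 6946744 UMIs, with 0 barcodes shared. The summed UMIs of basal keratinocytes were 2364868 in run 1 and 1644194 in run 2, against 6686708 and 1168347 in the other epidermal cells. Median UMIs per cell were close between the classes within a run, at 7982 against 8669 in run 1 and 15520 against 14996 in run 2. In run 2, 1 barcode held 157067 of the 1168347 UMIs of the other epidermal cells, so it weighed on the summed levels of that class. With every cell of at least 2000 UMIs thinned to 2000, a basal keratinocyte had a median of 787 genes in run 1 and 712 in run 2, against 696 and 581 in the other epidermal cells. Cells with fewer UMIs were left out here and wherever cells are thinned below. These were 17 basal keratinocytes and 62 other epidermal cells in run 1, and 3 and 8 in run 2. The median share of mitochondrial UMIs was 3.57% and 2.90% in basal keratinocytes and 2.11% and 1.34% in the others, and with a limit of 20% on this share 943 genes were higher and 807 lower in the comparison of all genes below.

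The basal share of the epidermal cells was 30.3% in run 1 (95% exact binomial interval 27.3 to 33.4%) and 60.0% in run 2 (52.0 to 67.7%). The intervals cover counting error only, and the sort, the loading and the depth of each run can set this share, so the runs were not tested against each other. With the epidermal cells of at least 2000 UMIs thinned to 2000 first, the shares were 28.4% of 832 cells and 57.0% of 149 cells.

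Most members lay well above the threshold that chose them. B was 3 to 5 in 13 members of run 1 and 3 of run 2, and the median B was 36 in run 1 and 79.5 in run 2. All 4 genes of B were detected in 187 members of run 1 (67.8%) and 79 of run 2 (82.3%). Of the other epidermal cells, 89.4% in run 1 and 85.9% in run 2 held no UMI of B, and 14 and 3 cells stood just outside with B of 2. S was 0 in 97.8% of the members of run 1 and 97.9% of those of run 2. Among barcodes with no UMI of epcam or krt5, 17 of 2415 in run 1 (0.704%) and 4 of 277 in run 2 (1.44%) reached a B of 3. The highest B among them was 10 in run 1 and 31 in run 2, within the range of the members. Whether these barcodes were background was not tested.

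**Figure D1:**
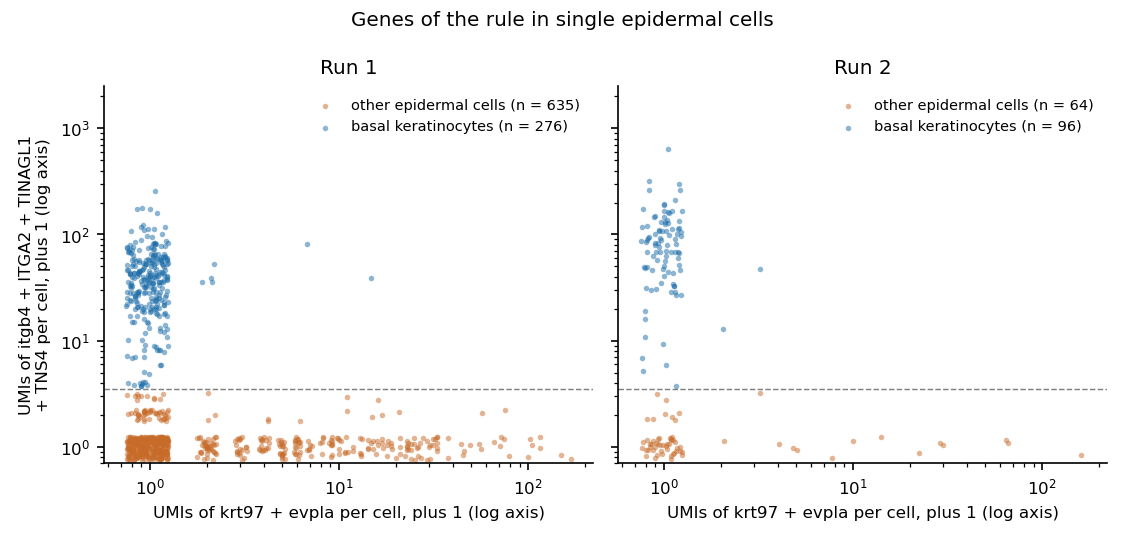
Each point is 1 epidermal cell of run 1 (left) or run 2 (right), placed by its UMIs of krt97 plus evpla and of itgb4, ITGA2, TINAGL1 and TNS4, both plus 1 on log axes with a small random shift so that cells with equal counts can be seen. The 276 and 96 basal keratinocytes lie above the dashed line at B of 3, most of them far above it and at S of 0, and the other epidermal cells lie below it.

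The genes of the rule chose the cells, so their levels are a description without a test; levels are UMIs per 1000000 UMIs of the class (CPM). Integrin β4, itgb4, stood at 1646 CPM in basal keratinocytes of run 1 and 1251 CPM in run 2, against 3.74 and 1.71 CPM in the other epidermal cells. TINAGL1, a secreted matrix protein that binds integrins, was measured at 1830 and 2366 CPM, compared with 1.94 and 0.856 CPM. TNS4, a focal adhesion tensin, reached 628 and 1040 CPM, with 5.38 and 7.70 CPM in the other class. ITGA2, the α2 collagen receptor subunit, had 789 and 857 CPM in basal keratinocytes but 1.05 and 0 CPM elsewhere in the epidermis. On the other side, the envelope gene evpla stood at 6.77 and 0.608 CPM in basal keratinocytes against 335 and 256 CPM. The epidermal genes krt5 and epcam were present in both classes and lower in the basal one, krt5 with 18044 and 20341 CPM compared with 34271 and 38075 CPM.

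The type I keratin cyt1 is not in the rule, but it is one of the markers listed for this class. Its level is therefore a description and no check of the label, and its tested call is counted with the keratins below. Cyt1 stood at 3026 CPM in run 1 and 5954 CPM in run 2. The other epidermal cells held 68.2 and 143 CPM, and barcodes without epcam or krt5 held 1.84 and 4.02 CPM. After thinning to 2000 UMIs, 94.6% and 96.8% of basal keratinocytes held a cyt1 UMI. Members near the threshold held cyt1 but not all other genes of the basal class. It was at 1318 and 2849 CPM in those with B of 3 to 5, and at 183 and 39.0 CPM in the other cells with B of 2. The members with B of 3 to 5 had inhbaa at 31.8 and 21.7 CPM, far below the level over all members given further on. They held 0 UMIs of snai2 in run 1 and 0 of itga6b in run 2, on 62959 and 45984 UMIs in all.

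Genes outside the rule were tested over the 4 class sums with edgeR's quasi-likelihood test and the run as a block, so that each class was compared within its run. Of 7115 genes tested, 977 (13.7%) were higher in basal keratinocytes and 896 (12.6%) were lower by an adjusted p (Benjamini-Hochberg) under 0.05 with a log2 fold change of at least 1 in size. Together 26.3% of genes were called, and these shares of all genes are the ones to set beside the list counts below. The filter on low counts keeps a gene that is expressed in both sums of 1 class alone. Such a gene could hardly be called toward the other class, so list counts in 1 direction follow in part from the filter. Of the genes called, 976 of the higher and 886 of the lower ones differed the same way in both runs. The calls rest on these same sums, so the shared direction is no separate check of them. Because the cells were chosen by their expression, the test describes which genes accompany the genes of the rule and is no independent evidence that the class exists. Scaling mattered to the balance of calls: with library sizes in place of TMM factors the median log2 fold change of all genes went from −0.01 to 0.31, and 1238 genes were higher and 588 lower. Log2 changes below are fitted log2 fold changes on the TMM scale, basal keratinocytes over the other epidermal cells, and paired levels are given for run 1 and then run 2.

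The other epidermal cells were not uniform, so the levels of 2 subclasses are given where they differ. A cell with S of at least 3 and S above B expressed the superficial genes of the rule (176 cells in run 1 and 12 in run 2), and the remaining 459 and 52 cells had both S and B under 3. Against the cells with low S, 1309 of 6870 genes tested were called (19.1%), 788 higher in basal keratinocytes (11.5%) and 521 lower (7.58%). Against the cells with high S, 1032 of 7434 genes were higher (13.9%) and 973 lower (13.1%), 27.0% in all. These comparisons share the basal sums.

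**Figure D2:**
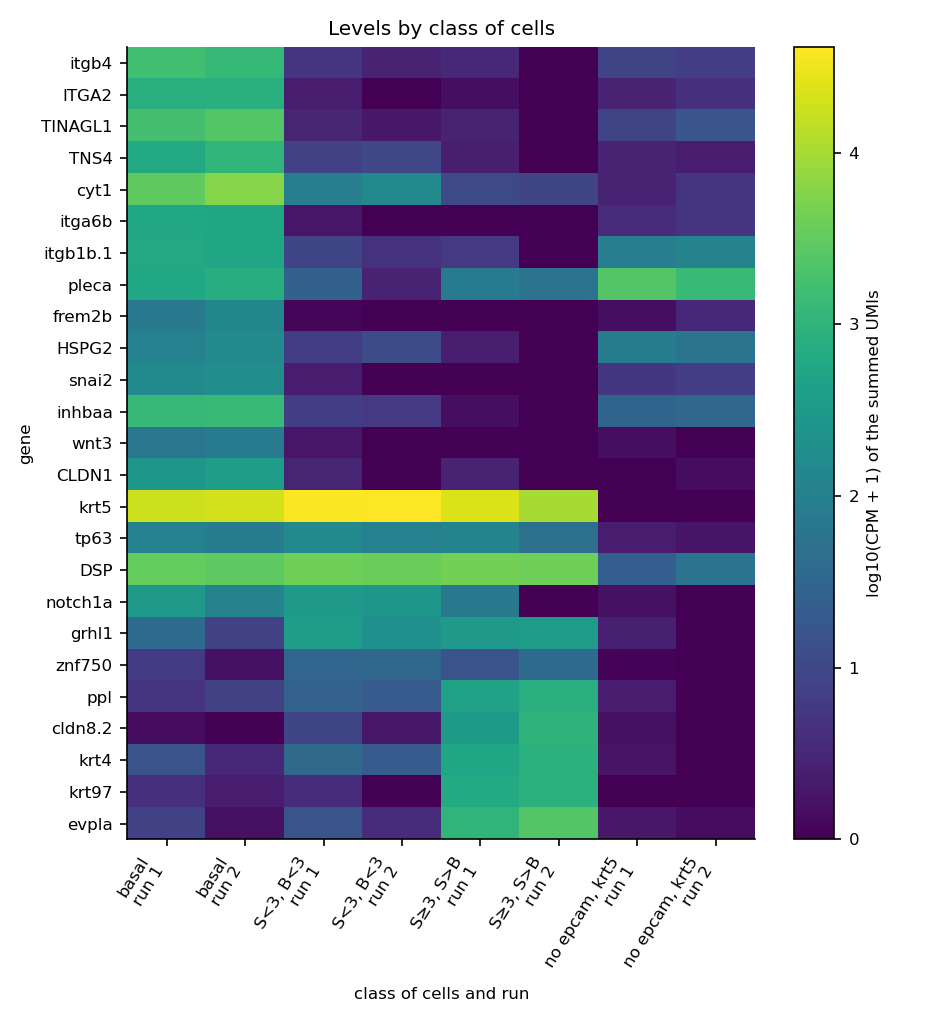
Rows are genes and columns are classes of cells in run 1 and run 2: basal keratinocytes, other epidermal cells with S and B under 3, those with S of at least 3 and above B, and barcodes without epcam or krt5. Color is log10(CPM + 1). The integrin and adhesion genes at the top are bright in the basal columns alone among epidermal cells, DSP and tp63 are similar across the epidermal columns, and the surface genes at the bottom are brightest in the cells with high S.

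Most integrin and hemidesmosome genes were far higher in basal keratinocytes. Of 9 members of the list that were tested, 7 were higher and the other 2 were not called, with a median log2 fold change of 5.63 beside −0.01 over all genes tested. With the gene at 0 UMIs in the other class set to its lower bound, the median was 5.37.

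Integrin α6 in these cells was itga6b, the partner of itgb4 in the hemidesmosome. It stood at 581 CPM in run 1 and 513 CPM in run 2, against 0.598 and 0 CPM in the other epidermal cells (fitted log2 change 9.76 with SE 0.42, adjusted p = 3.02e-10). In run 2, where the other cells held no UMI, the level was at least 200-fold higher, taking 3 UMIs as the floor of a class in a run. At 2000 UMIs per cell, 62.5% and 47.3% of basal keratinocytes held a UMI of itga6b, against 0.349% and 0% of the other epidermal cells and 0.476% and 2.95% of the barcodes without epcam or krt5. Its second feature, ITGA6, was below the filter, at 0.846 CPM in run 1 and 0 CPM in run 2.

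The β1 subunit itgb1b.1, the common partner of many α subunits, came to 604 and 510 CPM over 7.18 and 3.42 CPM (fitted log2 change 6.28 with SE 0.31, adjusted p = 9.41e-10). The laminin receptor subunit itga3b was measured at 105 and 49.3 CPM, compared with 1.65 and 0.856 CPM (fitted log2 change 5.63 with SE 0.43). The αv subunit itgav reached 129 and 169 CPM, with 2.39 and 0.856 CPM in the other class (fitted log2 change 5.73 with SE 0.38). For all of these the lower of the basal values was many times the higher of the others.

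The β3 subunit itgb3a, an αv partner, stood at 89.2 and 106 CPM and at 0 UMIs in the other epidermal cells of both runs, which makes it at least 199-fold and at least 41.2-fold higher; it was called by edgeR, but not by DESeq2 (adjusted p = 0.0712). The fibronectin receptor subunit itga5 had 92.6 and 99.7 CPM in basal keratinocytes but 7.48 and 7.70 CPM elsewhere in the epidermis (fitted log2 change 3.33 with SE 0.32). Plectin, pleca, came to 565 and 758 CPM over 43.5 and 7.70 CPM (fitted log2 change 4.36 with SE 0.43), but had 2374 and 1362 CPM in barcodes without epcam or krt5, so it was not particular to the basal layer within skin. ITGB6, an epithelial αv partner, was at 137 and 56.6 CPM, compared with 118 and 61.6 CPM and was not called.

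Basement membrane and matrix genes were mostly higher too. Of 11 tested, 10 were higher, with a median log2 fold change of 4.04, and 1, col4a1, was lower. Among the 10, the call of the fibronectin paralog fn1b rested on few cells. In each run 1 cell held most of its basal UMIs, 93.8% of 32 in run 1 and 90.9% of 11 in run 2. Frem2b, a Fraser-complex protein that anchors epidermis to dermis in mouse and zebrafish, was measured at 72.3 and 130 CPM, compared with 0.150 and 0 CPM, at least 50.7-fold in run 2. The collagen XVIII gene col18a1a reached 167 and 151 CPM, with 0.598 and 0.856 CPM in the other class (fitted log2 change 7.60 with SE 0.43, adjusted p = 3.56e-09). Both genes were close to absent from the other epidermal cells.

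HSPG2 and agrn, which encode heparan sulfate proteoglycans, were higher as well. HSPG2, for perlecan, had 106 and 158 CPM in basal keratinocytes but 4.49 and 9.41 CPM elsewhere in the epidermis (log2 fold change 4.04). Agrn, for agrin, was at 189 and 185 CPM, compared with 9.87 and 13.7 CPM (log2 fold change 3.74). The laminin γ1 chain lamc1 came to 68.5 and 79.7 CPM over 5.68 and 11.1 CPM (fitted log2 change 2.97 with SE 0.34). Fibronectin, fn1a, stood at 741 CPM in run 1 and 254 CPM in run 2, against 5.68 and 1.71 CPM (fitted log2 change 6.74 with SE 0.33). The fn1a level differed between the runs, and in each it lay far above that of the other epidermal cells.

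The collagen IV chain col4a1 went the other way, with 15.2 and 14 CPM compared with 24.1 and 54.8 CPM (fitted log2 change −1.59 with SE 0.37, adjusted p = 0.00304). Against the cells with high S the fitted difference was 0.31 and not called, and barcodes without epcam or krt5 held 498 and 849 CPM. The laminin chain lama5 was below the filter.

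Genes that link integrins to actin were higher or not called. Of 32 focal adhesion and actin genes tested, 18 were higher and the other 14 were not called, with a median log2 fold change of 1.71. The scaffold bcar1 was measured at 55.0 and 35.3 CPM, compared with 1.20 and 0 CPM, at least 13.7-fold in run 2. Integrin-linked kinase, ILK, reached 33.4 and 23.7 CPM, with 1.20 and 0 CPM in the other class, and talin, tln1, was at 123 and 102 CPM, compared with 5.08 and 0.856 CPM (log2 fold changes 4.70 and 4.62). Kindlin-1, FERMT1, which activates integrins in epithelial cells, had 148 and 124 CPM in basal keratinocytes but 6.88 and 3.42 CPM elsewhere in the epidermis (fitted log2 change 4.29 with SE 0.33), with 0.102 and 1.21 CPM outside the epidermal cells. The caveolar coat gene cavin1b came to 598 and 674 CPM over 14.7 and 19.7 CPM (fitted log2 change 4.92 with SE 0.27). Unlike FERMT1, several of these genes were also well detected in barcodes without epcam or krt5. There ILK stood at 30.8 and 28.9 CPM, tln1 at 132 and 93.3 CPM and cavin1b at 334 and 575 CPM, so none of them was particular to the basal layer within skin.

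**Figure D3:**
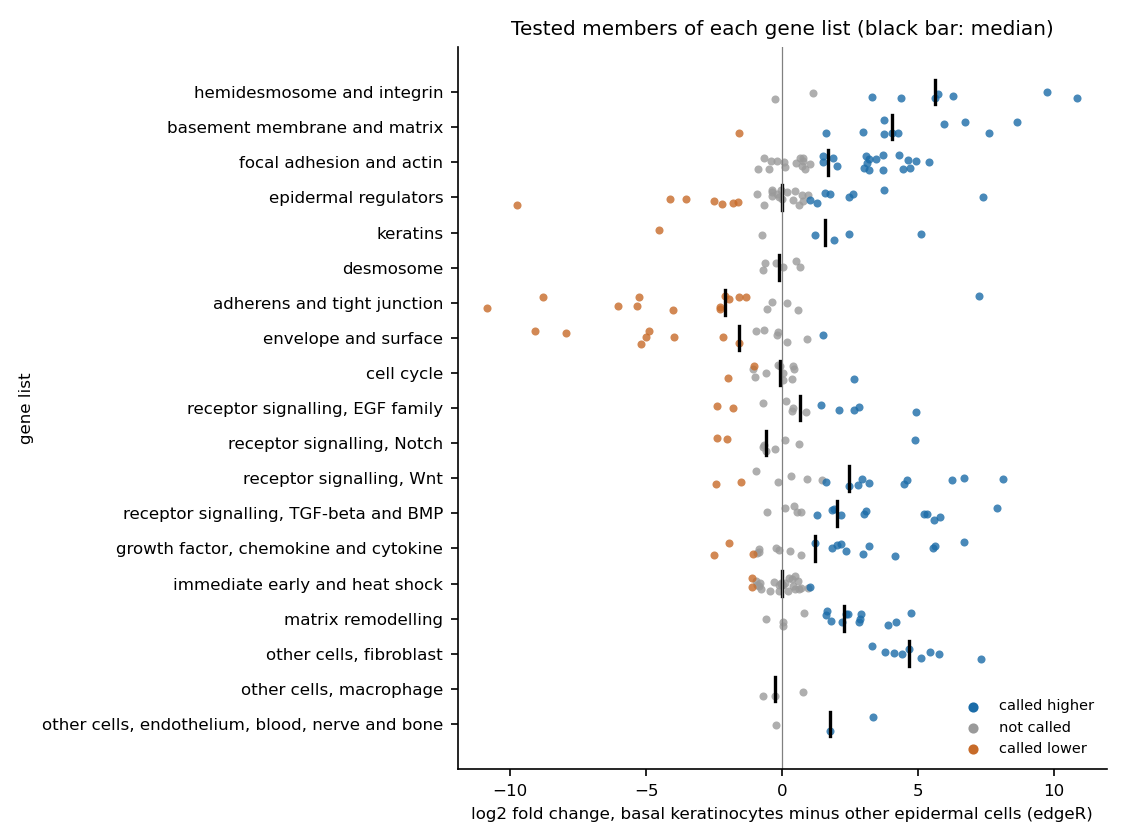
Each point is 1 tested gene of a list, placed by its log2 fold change of basal keratinocytes over other epidermal cells; blue was called higher, orange called lower, grey not called, and black bars are list medians. Integrin, basement membrane and fibroblast-list genes lie to the right, adherens and tight junction and envelope genes mostly to the left, and desmosome, cell cycle and immediate early genes near 0. Genes at 0 UMIs in one class are drawn at their fitted value, which is no bound.

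Further genes among the 12 with the largest differences stood in none of the lists. Bcam, a laminin receptor of the immunoglobulin family, was measured at 496 and 599 CPM, compared with 1.5 and 3.42 CPM (fitted log2 change 7.74 with SE 0.36, adjusted p = 5.23e-10). VIT, a von Willebrand factor A domain matrix protein, reached 184 and 223 CPM, with 0.299 and 0.856 CPM in the other class (fitted log2 change 8.48 with SE 0.45). Scube3, a secreted EGF-domain protein, had 52.4 and 85.8 CPM in basal keratinocytes but 0.150 and 0 CPM elsewhere in the epidermis, and 38.7% of its UMIs in run 1 came from 1 cell. Nmnat2, an enzyme of NAD synthesis, stood at 34.7 and 46.8 CPM with 0 UMIs in the other epidermal cells, at least 77.3-fold and 18.2-fold, and lost its call in DESeq2 (adjusted p = 0.135).

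Junction genes showed the reverse pattern, with 1 exception. Of 17 adherens and tight junction genes tested, 12 were lower in basal keratinocytes and 1 was higher, with a median log2 fold change of −2.09. The exception was CLDN1, a claudin, with 271 and 392 CPM compared with 1.94 and 0 CPM, at least 153-fold in run 2 (fitted log2 change 7.24 with SE 0.43, adjusted p = 5.57e-09). Outside the epidermal cells it stood at 0 and 0.402 CPM. At 2000 UMIs per cell, 42.1% and 54.8% of basal keratinocytes held a CLDN1 UMI, against 0.698% and 0% of the other epidermal cells.

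Other claudins were lower or missing. Cldn7b stood at 5635 and 4188 CPM in basal keratinocytes against 12418 and 10898 CPM (fitted log2 change −1.59 with SE 0.14, adjusted p = 3.52e-07), so it was abundant in both classes; against the cells with high S alone it lost its call (adjusted p = 0.069). Cldn23.1 had 0 UMIs in basal keratinocytes of either run and 99.9 and 26.5 CPM in the others, at least 78.8-fold and 14.5-fold lower, though not called by DESeq2 (adjusted p = 0.106). Cldn8.2 had 1 UMI in basal keratinocytes of run 1 and 0 in run 2, against 106 and 105 CPM. Most of the cldn8.2 signal lay in the cells with high S, at 322 and 993 CPM, against 8.25 and 0.957 CPM in those with low S. The run 2 levels of both genes rested on few of the 64 other epidermal cells. There cldn8.2 was found in 6 cells, and 3 of them held 106 of its 123 UMIs. Cldn23.1 was found in 4 cells, and 3 of them held 30 of its 31 UMIs. The cells with low S held cldn23.1 at 1.95 CPM in run 1 and at 0 UMIs in run 2.

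The occludin gene oclna was measured at 28.8 and 20.1 CPM, compared with 112 and 76.2 CPM (fitted log2 change −2.27 with SE 0.28), and its paralog oclnb was at 1.69 and 0 CPM, compared with 67.1 and 34.2 CPM (fitted log2 change −6.04 with SE 0.53). The zonula occludens gene tjp3 had 545 and 494 CPM, with 1170 and 915 CPM in the other class (fitted log2 change −1.33 with SE 0.19), a difference that fell just short of the fold threshold with library sizes alone. Paracingulin, CGNL1, was measured at 2.96 and 0.608 CPM, compared with 88.5 and 31.7 CPM (fitted log2 change −5.34 with SE 0.44).

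Desmosome genes were called in neither direction. Of 6 tested, 0 were called by edgeR and 0 by DESeq2, beside 26.3% of all genes tested by edgeR. With so few genes tested, the count gives no result about the list. In edgeR 4 had an unadjusted p under 0.05, and the median log2 fold change was −0.11. Desmoplakin, DSP, had 3369 and 3018 CPM, with 4060 and 3856 CPM in the other class, with a log2 fold change of −0.64 (SE 0.15, adjusted p = 0.00357), which is under the fold threshold. Plakoglobin, jupa, was measured at 2299 and 1736 CPM, compared with 2720 and 2505 CPM (fitted log2 change −0.72 with SE 0.17). These levels were lower in basal keratinocytes in both runs, by less than the fold that calls a gene.

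Envelope and surface genes were mostly lower. Of 15 tested, 8 were lower and 1 was higher, with a median log2 fold change of −1.59. Against the cells with low S, 13 were tested, of which 4 were lower and 0 higher. Of all genes tested there, 7.58% were lower and 11.5% higher. Periplakin, ppl, had 4.23 and 7.30 CPM, with 163 and 100 CPM in the other class (fitted log2 change −4.88 with SE 0.37, adjusted p = 6.28e-08). Transglutaminase 1, TGM1, which crosslinks the envelope in mammals, was measured at 0.423 and 5.47 CPM, compared with 88.4 and 46.2 CPM (fitted log2 change −5.02 with SE 0.58); against the cells with low S alone its call was lost (adjusted p = 0.0738). The disulfide isomerase gene agr1 had 1 UMI and 0 UMIs in basal keratinocytes, against 178 and 55.6 CPM. The protease gene capn9 and the immunoglobulin-domain gene vsig8b had 0 UMIs in basal keratinocytes of both runs. Capn9 was at least 61.2-fold and 18.8-fold lower, and vsig8b at least 48.0-fold and 20.6-fold lower. Neither was called by DESeq2 (adjusted p = 0.109 and 0.0913). In the other epidermal cells of run 2 each was found in 6 cells. There 3 cells held 27 of the 40 UMIs of capn9, and 3 cells held 41 of the 44 of vsig8b. The cells with low S held capn9 at 3.26 CPM and vsig8b at 7.82 CPM in run 1. In run 2 they held 0 UMIs of both, as did basal keratinocytes. The run 2 bounds therefore rest on the cells with high S.

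Most of the named genes with the largest deficits were highest in the cells with high S. The fatty acid binding protein gene fabp6, with 1 UMI in basal keratinocytes of run 1 and 0 in run 2, had 160 and 31.6 CPM in the cells with low S, but that level came from single cells: 1 cell held 733 of the 739 UMIs in the other epidermal cells of run 1 and 1 cell all 33 in run 2. In run 2, single cells also held 52.5% of the oclnb UMIs of the other epidermal cells, 48.4% of those of col4a1 and 45.5% of those of notch3.

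Keratins other than krt5 and cyt1 moved in both directions. Of 6 tested, 4 were higher and 1 was lower, and cyt1, described above as a marker, is among the 4. Krt4, a keratin of the surface layers in zebrafish, had 14.4 and 2.43 CPM, with 189 and 110 CPM in the other class (fitted log2 change −4.53 with SE 0.37, adjusted p = 1.24e-07). Krt8 came to 189 and 65.7 CPM over 39.0 and 2.57 CPM (fitted log2 change 2.47 with SE 0.36), but had 1390 and 572 CPM outside the epidermal cells, and 41.7% of its basal UMIs in run 2 came from 1 cell. Its partners krt18a.1 and krt18b were called higher by edgeR and not by DESeq2 (adjusted p = 0.353 and 0.177), and krt18b stood at 0.15 and not called without likely doublets (adjusted p = 0.863). Krtt1c19e, used as a basal keratinocyte marker in zebrafish, was measured at 6945 and 8070 CPM, compared with 3854 and 3187 CPM. It was not called by the fold threshold (fitted log2 change 0.76 with SE 0.15, adjusted p = 0.000988). The TMM factors lower every such change, by 0.29 in log2 units in run 1 and 0.37 in run 2. Among the other epidermal cells krtt1c19e stood at 5056 and 3562 CPM with low S and at 1195 and 0 CPM with high S. The excess was therefore far smaller against the cells with low S.

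Transcription factors of the epidermis split into groups. Of 31 regulators tested, 8 were higher, 7 were lower and 16 were not called, beside 13.7% higher and 12.6% lower of all genes. The median log2 fold change was −0.01, equal to that of all genes. Snai2, a zinc finger repressor that represses epithelial adhesion genes and keeps basal keratinocytes undifferentiated in human epidermis, reached 155 and 190 CPM, with 0.897 and 0 CPM in the other class, at least 74.1-fold in run 2 (fitted log2 change 7.40 with SE 0.44, adjusted p = 6.17e-09). It was detected in 51.4% and 79.2% of the members, and in 23.9% and 28.0% at 2000 UMIs per cell, against 0.349% and 0% of the other epidermal cells. Its relative snai1a went the other way, with 13.5 and 11.6 CPM compared with 61.8 and 52.2 CPM (fitted log2 change −2.51 with SE 0.32, adjusted p = 1.45e-05), with the call lost against the cells with high S (adjusted p = 0.34).

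Sox4a had 46.1 and 48.0 CPM in basal keratinocytes but 2.84 and 2.57 CPM elsewhere in the epidermis (fitted log2 change 3.74 with SE 0.39), and tfap2a, an AP-2 factor of ectoderm, was at 324 and 201 CPM, compared with 105 and 67.6 CPM (fitted log2 change 1.27 with SE 0.23). Runx2b, which drives bone formation in vertebrates, came to 344 and 359 CPM over 108 and 59.1 CPM (fitted log2 change 1.77 with SE 0.26). It stood at 33.8 and 34.2 CPM outside the epidermal cells, and the single member with bone genes described below held 10 of its 814 UMIs in run 1.

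Grhl1, znf750 and ehf were among the 7 regulators called lower. Grhl1, a grainyhead factor, was measured at 40.6 and 6.69 CPM, compared with 347 and 223 CPM (fitted log2 change −4.12 with SE 0.37, adjusted p = 3.57e-07), and znf750 was at 5.07 and 0.608 CPM, compared with 26.0 and 34.2 CPM (fitted log2 change −3.52 with SE 0.52). The epithelial ETS factor ehf had 0 UMIs in basal keratinocytes and 50.7 and 7.70 CPM in the others, at least 40.0-fold and 4.22-fold lower, with DESeq2 not calling it (adjusted p = 0.192).

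The p63 gene tp63, a master regulator of stratified epithelia, was not called. It stood at 106 CPM in run 1 and 88.2 CPM in run 2, against 148 and 101 CPM in the other epidermal cells (fitted log2 change −0.68 with SE 0.24, adjusted p = 0.0398), which is under the fold threshold. Outside the epidermal cells it was at 1.23 and 0.804 CPM. At 2000 UMIs per cell it was detected in 13.5% and 12.9% of basal keratinocytes and in 22.3% and 10.7% of the other epidermal cells.

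**Figure D4:**
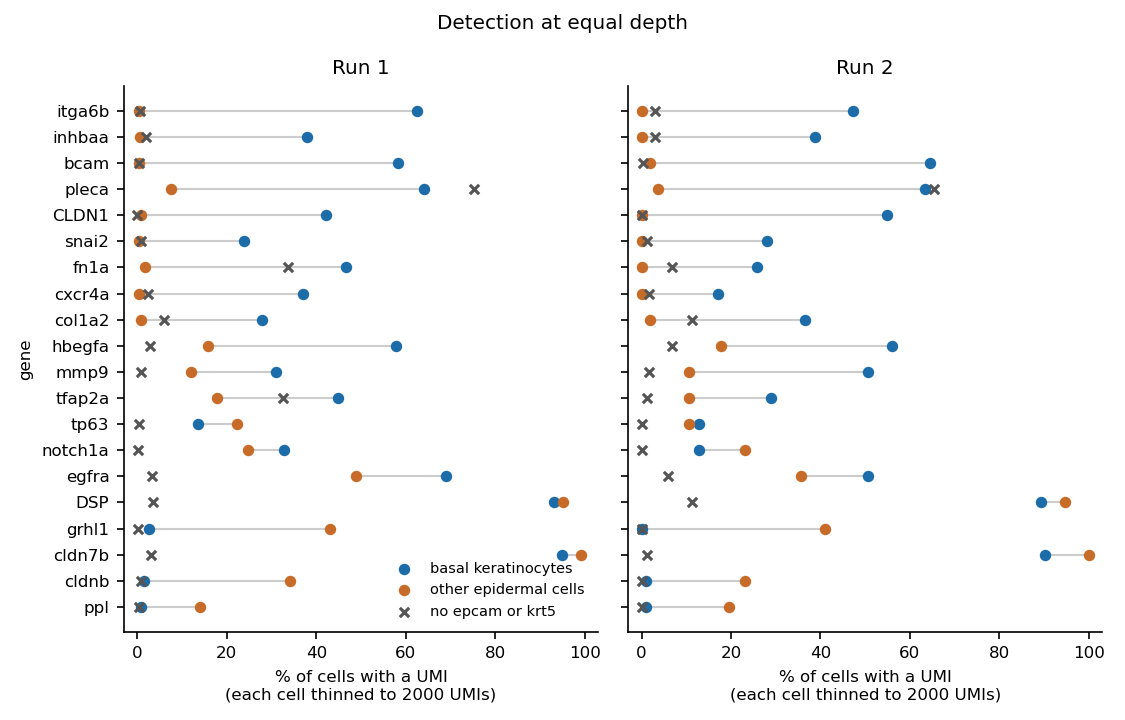
Points give the share of cells with at least 1 UMI of a gene after every cell of at least 2000 UMIs was thinned to 2000, for basal keratinocytes (blue), other epidermal cells (orange) and barcodes without epcam or krt5 (crosses), in run 1 and run 2. Blue lies far right of orange from itga6b to cxcr4a, the pairs of tp63 and notch1a change order between runs, those of DSP lie close, and orange lies right of blue for grhl1, cldnb and ppl.

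Genes of secreted signals were higher in the basal class in several families. Of 16 TGF-β and BMP genes tested, 11 were higher and the other 5 were not called, with a median log2 fold change of 2.02. Inhbaa, which encodes the βA subunit of activin, was measured at 1253 and 1339 CPM, compared with 4.19 and 4.28 CPM (fitted log2 change 7.92 with SE 0.29, adjusted p = 4.75e-11), and was at 29.3 and 31.8 CPM outside the epidermal cells. The ligand tgfb1a reached 67.2 and 90.6 CPM, with 1.79 and 0 CPM in the other class, at least 35.3-fold in run 2, and bmp7b was at 18.6 and 17 CPM, compared with 0.150 and 0.856 CPM. Fsta, for the activin antagonist follistatin, had 11.4 and 10.3 CPM in basal keratinocytes but 0.150 and 0 CPM elsewhere in the epidermis. The receptor TGFBR2 came to 404 and 290 CPM over 120 and 108 CPM (fitted log2 change 1.27 with SE 0.23), and the inhibitory Smad gene smad7 was at 69.8 and 62.6 CPM, compared with 13.2 and 16.3 CPM (fitted log2 change 1.90 with SE 0.31).

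Of 17 Wnt pathway genes tested, 10 were higher and 2 were lower, with a median log2 fold change of 2.47. Wnt3 was measured at 65.1 and 83.3 CPM, compared with 0.598 and 0 CPM, at least 32.5-fold in run 2 (fitted log2 change 6.70 with SE 0.51, adjusted p = 6.42e-08), and wnt3a at 13.5 and 14.6 CPM against 0 UMIs in both runs, at least 30.2-fold and 5.68-fold. Lgr6, an R-spondin receptor of skin stem cells in mouse, reached 14.8 and 25.5 CPM, with 0 and 0.856 CPM in the other class. The Wnt inhibitor sfrp1a had 53.7 and 57.2 CPM in basal keratinocytes but 2.09 and 0.856 CPM elsewhere in the epidermis (fitted log2 change 4.58 with SE 0.43), and the effector tcf7 was at 590 and 628 CPM, compared with 121 and 59.1 CPM (fitted log2 change 2.47 with SE 0.27). Wnt10a was lower, with 14 and 6.69 CPM compared with 66.8 and 23.1 CPM (fitted log2 change −2.41 with SE 0.35), so the ligands differed in direction.

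Of 21 growth factor, chemokine and cytokine genes tested, 11 were higher and 3 lower, with a median log2 fold change of 1.22. Sonic hedgehog, shha, came to 19.5 and 29.8 CPM over 0.150 and 0 CPM, and its receptor ptch1, which is also a target of the pathway, was at 30.9 and 38.3 CPM, compared with 0.598 and 0 CPM, at least 11.6-fold and 14.9-fold in run 2. Shha was found in few members, 26 in run 1 (9.42%, exact interval 6.25 to 13.5%) and 18 in run 2 (18.8%, 11.5 to 28.0%), and ptch1 in 46 and 28. Both were found together in 5 members of each run, and whether this number differs from that of independent detection was not tested. No UMI of shha was seen in any barcode without epcam or krt5.

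The hepatocyte growth factor receptor met was measured at 203 and 95.5 CPM, compared with 4.19 and 0 CPM, at least 37.2-fold in run 2, and the PDGF ligand pdgfab was at 26.6 and 38.9 CPM, compared with 1.65 and 0 CPM. The secreted guidance cue slit2 reached 170 and 261 CPM, with 1.5 and 0 CPM in the other class (log2 fold change 6.93). The semaphorin co-receptor nrp1a was at 172 and 274 CPM, compared with 1.05 and 1.71 CPM (log2 fold change 6.99), and the chemokine receptor cxcr4a at 305 and 163 CPM, compared with 3.89 and 0 CPM (fitted log2 change 6.25 with SE 0.40). All 5 were many times lower, or at 0 UMIs, in the other epidermal cells. The angiogenic ligand vegfab was lower, with 25.8 and 23.1 CPM compared with 80.6 and 71.0 CPM (log2 fold change −1.96). Kitlga, a ligand for the Kit receptor of pigment cells, was lower too, with 3.81 and 4.26 CPM compared with 26.5 and 9.41 CPM (log2 fold change −2.51). DESeq2 did not call kitlga (adjusted p = 0.0507).

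Of 12 EGF family genes tested, 5 were higher and 2 lower, beside 13.7% higher and 12.6% lower of all genes tested. The ligand hbegfa had 865 and 945 CPM in basal keratinocytes but 197 and 139 CPM elsewhere in the epidermis (fitted log2 change 2.11 with SE 0.22, adjusted p = 1.88e-06), and the ERK phosphatase gene dusp4, a feedback target, was at 112 and 205 CPM, compared with 3.59 and 3.42 CPM (fitted log2 change 4.91 with SE 0.34). The receptor egfra was not called, with 752 and 669 CPM compared with 577 and 334 CPM, but was called higher against the cells with high S alone (log2 fold change 1.69, adjusted p = 0.01). The receptor erbb4a was lower, with 1.27 and 5.47 CPM compared with 12.9 and 11.1 CPM, a call that DESeq2 did not make (adjusted p = 0.108).

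Of 9 Notch genes tested, 1 was higher and 2 were lower, beside 13.7% higher and 12.6% lower of all genes tested. With so few genes called, the list gives no result of its own, and its members are described singly. The transcriptional repressor her6 came to 50.3 and 53.5 CPM over 1.5 and 0.856 CPM (fitted log2 change 4.88 with SE 0.44), with 147 and 200 CPM outside the epidermal cells. The receptor notch3 was measured at 16.5 and 3.65 CPM, compared with 45.3 and 37.7 CPM (fitted log2 change −2.39 with SE 0.41), and lost its call against the cells with high S (adjusted p = 0.137). The Notch target nrarpa had 22 and 55.3 CPM, with 124 and 102 CPM in the other class (fitted log2 change −2.02 with SE 0.33). Notch1a went in opposite directions in the runs, at 299 against 226 CPM in run 1 and 114 against 252 CPM in run 2, and was not called. Against the cells with high S alone notch1a was called higher (log2 fold change 2.47, adjusted p = 6.44e-05). The ligand jag1b was at 85.0 and 74.8 CPM, compared with 102 and 53.9 CPM and not called.

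Matrix remodelling genes were higher or not called. Of 16 tested, 12 were higher and the other 4 were not called, with a median log2 fold change of 2.28. The gelatinase mmp9 was measured at 748 and 1378 CPM, compared with 170 and 141 CPM (fitted log2 change 2.36 with SE 0.25, adjusted p = 2.24e-06) and was detected in 39.5% and 56.2% of members. The metalloproteinase inhibitor timp3 had 46.9 and 137 CPM in basal keratinocytes but 9.12 and 4.28 CPM elsewhere in the epidermis (fitted log2 change 2.89 with SE 0.42).

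Of 13 cell cycle genes tested, 3 were called, a share near the 26.3% of all genes, so the list gives no result of its own. The 1 higher was the cyclin D gene ccnd1, with 11 and 24.3 CPM compared with 2.09 and 0.856 CPM (fitted log2 change 2.63 with SE 0.55, adjusted p = 0.00137). Ube2c and ccnd2a were lower. In the other epidermal cells of run 2, ube2c was found in 4 cells, and 1 of them held 16 of its 20 UMIs. Ccnd2a, at a log2 fold change of −1.05, dropped under the fold threshold with library sizes alone (−0.72). The proliferation gene mki67 was found in 3 members of run 1 and 4 of run 2, and 66.7% and 70.8% of its UMIs came from 1 cell in each run. In the other epidermal cells mki67 was at 11.4 and 0 CPM, so its direction differed between runs, and pcna was not called. The members held 12 UMIs of mki67 in run 1 and 24 in run 2, and how many of them were cycling was not tested.

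Immediate early and heat shock genes can rise during warm dissociation. Of 27 tested, 1 was higher and 2 were lower, beside 13.7% higher and 12.6% lower of all genes. The median log2 fold change was 0.00. Fosb, the 1 higher, came to 3090 and 2324 CPM over 895 and 1250 CPM (fitted log2 change 1.01 with SE 0.21), and lost its call without the run as a block (adjusted p = 0.153).

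Genes of the fibroblast list were higher in basal keratinocytes, 9 of 9 tested beside 13.7% of all genes, with a median log2 fold change of 4.66. In the other epidermal cells of run 2, 11 of the 14 features of the list were at 0 UMIs. Genes that passed the filter through the basal sums alone could hardly be called lower, so the count of 9 of 9 is no separate support. The summed level of all 14 features of the list was 719 and 598 CPM in basal keratinocytes, 25.3 and 9.42 CPM in the other epidermal cells and 1129 and 737 CPM in barcodes without epcam or krt5, and 0 of the 14 features were at 0 UMIs in the basal class. The largest change of the list was that of postnb, a periostin gene, with 137 and 43.2 CPM compared with 0.299 and 1.71 CPM (fitted log2 change 7.33 with SE 0.62, adjusted p = 2.05e-07). Of the collagen chains, col1a2 was measured at 178 and 227 CPM, compared with 7.33 and 3.42 CPM (fitted log2 change 4.66 with SE 0.34, adjusted p = 3.6e-08), and COL5A1 was at 170 and 131 CPM, compared with 3.14 and 0 CPM, above the 48.9 and 24.5 CPM outside the epidermal cells. Periostin, postn, reached 93.0 and 96.7 CPM, with 2.84 and 0 CPM in the other class.

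Defining fibroblast genes were present in the members, below their level outside the epidermal cells. Lum was called higher, with 9.30 and 6.08 CPM compared with 0.150 and 0 CPM (fitted log2 change 5.45 with SE 0.97, adjusted p = 0.000362), and stood at 45.2 and 61.1 CPM outside the epidermal cells. All its basal UMIs in run 2 came from 1 cell. Dcn was called higher too (fitted log2 change 3.30 with SE 0.47, adjusted p = 4.68e-05). Below the filter were pdgfra at 5.50 and 0.608 CPM and pdgfrb at 1.27 and 0.608 CPM, while dcn was at 43.6 and 12.2 CPM, compared with 186 and 203 CPM outside the epidermal cells. UMIs of dcn, lum, pdgfra or pdgfrb were found in 27 of 276 members of run 1 and 8 of 96 of run 2. Of the other epidermal cells, 8 of 635 and 0 of 64 held them. Members without such UMIs numbered 249 in run 1 and 88 in run 2. They held col1a2 at 168 and 202 CPM, with a UMI in 60.6% and 87.5% of them. In these members COL5A1 was at 160 and 138 CPM, col1a1a at 17.8 and 16.1 CPM and col1a1b at 25.7 and 27.2 CPM. Whether the collagen UMIs came from the members themselves was not tested. With all cells holding such UMIs left out, 7 of the 7 fibroblast-list genes tested were higher, with the same limit from the filter. Of all 6647 genes tested there, 922 were higher (13.9%) and 884 lower (13.3%).

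Other marker lists had few genes tested. Of the lymphocyte list 0 of 7 features passed the filter, and its summed level was 6.77 and 3.65 CPM against 15.9 and 0 CPM. Of 3 macrophage genes, 2 xanthophore and leucophore genes and 2 ionocyte genes tested, 0 were higher; by unadjusted p under 0.05 in edgeR, 1, 0 and 1 passed in either direction, and DESeq2 called 0 higher. The ionocyte gene rhcga, an ammonia channel, was called lower, with 153.5 and 39.5 CPM compared with 289 and 129 CPM (fitted log2 change −1.59 with SE 0.26), but not against the cells with low S (adjusted p = 0.933). Of 3 endothelium, blood, nerve and bone genes tested, 2 were higher, runx2b and the mechanosensitive channel PIEZO2, the latter with 8.03 and 6.69 CPM compared with 0.748 and 0 CPM and not called by DESeq2 (adjusted p = 0.106). The summed level of that list was 647 and 512 CPM against 358 and 205 CPM. The summed macrophage level, 1807 and 2182 CPM against 2539 and 2594 CPM, came almost wholly from the MHC class II chaperone cd74a, with 1790 and 2163 CPM compared with 2524 and 2587 CPM. Of the melanophore and iridophore list 1 gene was tested, the LIM-domain gene FHL3, which was higher with 1092 and 1005 CPM compared with 368 and 229 CPM and stood at 9.21 and 6.03 CPM outside the epidermal cells. The summed xanthophore and leucophore level was 56.2 and 17 CPM in basal keratinocytes and 6026 and 5029 CPM outside the epidermal cells. Among doublet scores, 16 members of run 1 and 2 of run 2 fell in the top 4% of their run, and without such barcodes 939 genes were higher and 832 lower.

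Members differed among themselves. Inhbaa was uneven: 79 members of run 1 (28.6%) and 30 of run 2 (31.2%) had at least 10 UMIs of it per 10000, and they held 93.6% and 90.6% of its basal UMIs. The median was 0 per 10000 in run 1 and 1.08 in run 2, and the highest cells reached 185 and 290. Among 1061 genes with at least 150 UMIs in the members of each run, the median squared coefficient of variation beyond counting error was 0.386 in run 1 and 0.322 in run 2. For inhbaa it was 2.87 and 2.29.

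The glycosyltransferase gene EXT1, at 11.4 and 9.96, and the matrix gene thbs1, at 7.20 and 7.95, stood further out, with thbs1 detected in 19.6% and 19.8% of members. Single cells weighed on these values, since 1 cell held 20.8% and 40.3% of the EXT1 UMIs. Cyt1 was even by comparison, with 81.2% and 93.8% of members at 10 or more per 10000. Genes in this paragraph and the one before were chosen after their values were seen.

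**Figure D5:**
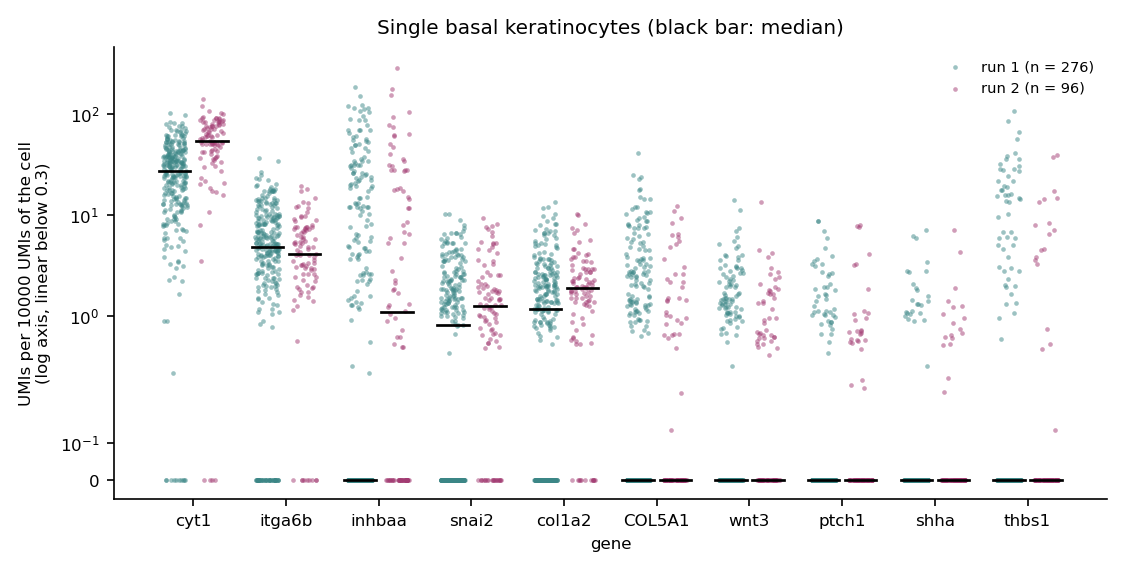
Points are single basal keratinocytes of run 1 (276 cells) and run 2 (96 cells), placed by UMIs of each gene per 10000 UMIs of the cell on an axis that is logarithmic above 0.3 and linear below; black bars are medians. Cyt1 and itga6b are spread over nearly all cells, inhbaa and thbs1 are high in some cells and 0 in many, and shha and ptch1 are present in a minority.

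One member of run 1 stood apart from the others. It had 15480 UMIs and held 236 of the 241 UMIs of the bone genes ifitm5, ihha, col10a1a, phospho1 and sp7 found in the members of run 1, beside 41 UMIs of epcam, 38 of krt5, 29 of TINAGL1 and 7 of itgb4. The members of run 2 held 0 UMIs of these bone genes.

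By a 4-fold threshold, wider than that of the class comparison, basal keratinocytes of the 2 runs differed in few genes. Shifts under 4-fold were not counted, and the 5 CPM added to each level shrink the ratios of weakly detected genes. Of 4760 genes with at least 30 UMIs in the members of a run, 17 were at least 4-fold higher in run 2 and 43 at least 4-fold lower, with 5 CPM added. Of these, 5 and 27 shifted at least 2-fold the same way in the other epidermal cells, among them MCTP1, at 1264 and 136 CPM in basal keratinocytes and 946 and 84.7 CPM in the others. The share of all 4760 genes that shifted this far in the other epidermal cells is not given here, so these counts are not read as an excess. The collagen chaperone serpinh1b, at 214 CPM in run 1 and 947 CPM in run 2, and the prostaglandin synthase ptges, at 410 and 1281 CPM, were higher in run 2 in the basal class, while in the others they were at 7.03 and 1.71 CPM and at 34.8 and 12.8 CPM. With 1 library per run, a difference between runs cannot be told apart from a difference between the fish or cells loaded.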

How the data were processed

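The authors deposited 1 matrix of raw UMI counts per gene and barcode for each of the 2 runs, made with Cell Ranger 7.1.0 per the file headers and the submitters' processing notes. Neither genome build nor annotation is given in the sources used here, so no coordinates or sequences are given. The files list 23601 features, 13523 with a symbol; paralogs with near-identical sequence may share reads.

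Members and gene lists were chosen with earlier results of these data known. Counts were summed per run and class without further filters on cells, giving 4 sums, and tested with edgeR 4.0.16 (glmQLFit and glmQLFTest, R 4.3.3, limma 3.58.1), TMM scaling and filterByExpr, with the run as a replicate block because both sums of a run come from 1 library. This leaves 1 residual degree of freedom, so the spread is borrowed across genes. SE is the absolute log2 fold change divided by the square root of F. The 11 genes of the rule were left out of the test. Runs are analysed as libraries; doublets were scored with Scrublet (scanpy 1.11.5), whose own threshold called 11 and 3 barcodes, so the top 4% of scores were left out only as an alternative. The floor of a class at 0 is 3 UMIs per run, and intervals are 95% exact ones that cover counting error only.

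The genes named were the 12 with the largest and the 12 with the smallest log2 fold change among called genes with a symbol, the same direction in both runs and at least 30 UMIs in the higher class of each run, up to 4 called genes per list with the largest change, a fixed set of epidermal genes whatever their call, and the genes of the rule. Other genes named were chosen after their values were seen. Lists are described by counts and medians, with no set test. The steps were tested on simulated data for this comparison: of 7046 genes, 50.5% of those changed 2-fold and 95.7% of those changed 4-fold passed the adjusted p, 33% and 95.7% passed the fold threshold as well, and 3 unchanged genes were called. The simulated sums shared a mean profile and a fixed dispersion, with no difference between runs and only 200 genes changed. The real sums differ from this in the runs and in the share of genes called, so these rates need not hold for them. Alternatives covered scaling, filter, tool, block, B of 2 or 5, cell filters, comparison cells and each run alone. DESeq2 1.42.0 was the other tool. Values of some genes are not reported here.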

Additional observations from a re-analysis of the deposited data

How the results depend on the processing

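The comparison of all genes gave 977 higher and 896 lower genes. Without the replicate block it gave 669 and 528, all of them among those called with the block. DESeq2 gave 626 higher and 547 lower, library sizes alone 1238 and 588, and the cells with S and B under 3 as the comparison class 788 and 521. The other alternatives for these counts (DESeq2 size factors in edgeR, no filter, B of at least 2 or 5, the cells with high S, cells with at least 4000 UMIs, a mitochondrial limit, and leaving out likely doublets or cells with immune or fibroblast UMIs) stayed within 1.5 times. Library sizes alone, the cells with S and B under 3 and the fibroblast limit were chosen after seeing the data. The values that changed direction did so against the cells with high S: notch1a to 2.47, col4a1 to 0.31 and mki67 to −1.52 on the log2 scale. The cause of these changes was not tested. Leaving out a run leaves no residual degree of freedom, so each run alone gave log2 ratios and no count. Of the named genes with a ratio in a run, 0 of the 133 called took the other sign in either run, while 5 of the 20 not called did, among them notch1a, mki67 and jag1b. The calls rest on these same sums with the run as a block, which a gene of opposite signs can hardly pass. Part of the called genes also had to share a direction to be named. These counts are therefore no separate check of the calls. The basal shares moved by less than their intervals under every alternative, between 28.4 and 31.6% in run 1 and between 57.0 and 61.2% in run 2.

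Depth limits what could be seen: a gene at 0 UMIs in basal keratinocytes could be at up to 1.27 CPM in run 1 and 1.82 CPM in run 2, and 1 residual degree of freedom, 64 comparison cells in run 2 and a sort aimed at pigment cells limit every comparison.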
